A study of Mus musculus with 16 samples.

Results

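The Myc, Max and Mxd network of mouse embryonic stem (ES) cells is described here through 10 genes out of the 22375 in the deposited tables, namely Myc, Mycn, Mycl (listed as Mycl1), Max, Mxd1, Mxd3, Mxd4, Mxi1, Mnt and Mlx. They were chosen by family name, with earlier results of these data known, among them the response of Mycn, so that the values of the 10 genes describe them and the adjusted p-values, which come from the fit across all genes, add no independent support. The study asked how Cfp1, a protein that binds unmethylated CpG and belongs to the Set1 complex that methylates histone H3 at lysine 4, acts when transcription is changed rapidly by DNA damage. RNA was sequenced from ES cells of strain 129/OLA in 4 groups, which were untreated WT cells of the E14Tg2a line, WT cells given doxorubicin for 6 hours, untreated Cfp1-/- cells, and Cfp1-/- cells given doxorubicin for 6 hours. All were grown with serum and LIF, which keeps ES cells from differentiating. Doxorubicin is a topoisomerase poison that causes DNA breaks. Its dose is 1 μM in the treatment protocol, while the label of each treated sample gives the same figure in millimolar. Each group held 2 biological replicates, each sequenced in 2 technical replicates. The number of clones behind the Cfp1-/- cells is not given in the sources used here, so that loss of Cfp1 and other differences between the 2 lines cannot be told apart. Nothing in the labels says whether the biological replicates were separate cultures on separate days, and p-values measure only the spread between these samples.

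Myc, Mycn and Mycl are transcription factors that bind the E-box CACGTG as heterodimers with Max and mostly raise the transcription of genes for growth, ribosome production and metabolism. The Mxd proteins, Mxi1 and Mnt compete for Max and for the same sites, recruit Sin3 and histone deacetylases, and lower transcription, and they typically take over from Myc as cells stop dividing or differentiate. Mlx is a Max-like partner that binds some Mxd proteins, Mnt and the glucose-sensing factors Mlxip and Mlxipl. In ES cells Myc and Mycn overlap in function and are tied to self-renewal.

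The counts of the 8 libraries, with technical replicates summed, lay between 14880589 and 29422711, and 15758 genes passed the filter on low counts, the 10 network genes among them. Cxxc1, which encodes Cfp1, had between 616 and 1412 counts in the WT libraries and between 1 and 5 in the Cfp1-/- libraries. The technical replicates of 6 libraries agreed within sampling noise. They did not in the library of replicate 1 of treated WT cells (chi-square of 9.61 for each degree of freedom) and in that of replicate 1 of treated Cfp1-/- cells (42.9). In the second technical replicate of that treated Cfp1-/- library, 439 genes with at least 200 counts in the first had 0, all of them on chromosomes 19, X and Y. It is called the affected run here and touches Mxi1, the member on chromosome 19. All 9 markers of ES cells (Pou5f1, Nanog, Sox2, Zfp42, Esrrb, Klf4, Tdgf1, Dppa5a and Utf1) were above 3 counts in every group. Their summed normalized count was 69413 and 94513 in untreated WT, 74904 and 75872 in untreated Cfp1-/-, 26901 and 36293 in treated WT, and 25330 and 33406 in treated Cfp1-/- cells, so it fell with the treatment in both lines. All 9 means fell, but not alike. Dppa5a overlapped between treatments, with 8298 and 6136 against 8157 and 5282 in WT, and 4693 and 5256 against 5123 and 3758 in Cfp1-/- cells. Pou5f1 changed by -0.38 in WT (edgeR, adjusted p = 0.0435) and by -0.37 in Cfp1-/- cells (0.0462). With total count scaling these were -0.06 and -0.16 (edgeR, adjusted p = 0.733 and 0.380). The sums of the untreated lines hold opposite differences between single markers. Nanog was at 6419 and 3651 in untreated WT and at 14050 and 13038 in untreated Cfp1-/- cells. Zfp42 went the other way, with 15662 and 9967 against 5035 and 5077. The sum of 7 fibroblast markers lay between 74.2 and 242 in untreated and between 301 and 515 in treated libraries, with Lum at or under 3 counts in both replicates of every group. In WT cells this rise of the sum was that of Col1a1, since the other 6 summed to 151 and 167 without and 149 and 161 with doxorubicin. Among them, Thy1 rose in WT cells from 28.9 and 48.0 to 60.3 and 86.6 (edgeR, adjusted p = 0.0440, and 0.1 by DESeq2). Col1a2 went from 50.1 and 55.2 to 47.2 and 34.9 there, and Col3a1 from 62.0 and 44.8 to 35.4 and 24.3. In Cfp1-/- cells the sum of the other 6 went from 61.2 and 78.6 to 96.0 and 122. The sum of 7 primitive endoderm markers lay between 197 and 538 in untreated and between 365 and 686 in treated libraries. Pdgfra went from 22.9 and 32.3 to 238 and 193 in WT and from 125 and 183 to 451 and 446 in Cfp1-/- cells. The other 6 summed to 174 and 230 without and 139 and 172 with doxorubicin in WT cells. In Cfp1-/- cells they summed to 413 and 182 without and 235 and 121 with it. The Cfp1-/- sum holds opposite changes. Gata4 rose from 5.56 and 5.92 to 19.4 and 18.3, and Sox17 from 6.49 and 1.69 to 24.5 and 11.6. Both were called by edgeR (adjusted p = 0.0226 and 0.0320) but not by DESeq2 (0.0843 and 0.134). Sox7 went from 38.9 and 21.1 to 8.17 and 11.6, and Dab2 from 322 and 138 to 139 and 59.8. Neither fall was called by edgeR (adjusted p = 0.0557 and 0.0852). Both were called by edgeR with the replicate number as a block (adjusted p = 0.0390 and 0.0427), and that of Dab2 also by DESeq2 (0.0383). The part of these shifts in the values below was not tested, and in bulk RNA fewer cells of a type and less RNA per cell cannot be told apart.

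Mycn was the most abundant member in untreated WT cells and fell under doxorubicin in both lines. Its normalized count, the raw count divided by the library's DESeq size factor, was 4728 and 5754 in untreated WT cells and 923 and 1204 in treated WT cells. In Cfp1-/- cells it was 1856 and 2551 without and 133 and 131 with doxorubicin. The 4 groups did not overlap, and the treated Cfp1-/- libraries were far below all others although they still held 130 and 136 raw counts. The log2 fold change was -2.25 ± 0.195 (SE, n = 2 per group), a 4.77-fold fall, in WT cells (edgeR, adjusted p = 2.31e-05) and -4.02 ± 0.218, a 16.2-fold fall, in Cfp1-/- cells (adjusted p = 3.92e-06). Relative to WT, Mycn was lower by 1.22 ± 0.188 in untreated Cfp1-/- cells (log2 fold change -1.22, adjusted p = 0.00143) and by 2.99 ± 0.213 in treated cells (log2 fold change -2.99, adjusted p = 5.999e-05).

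The response of Mycn differed between the lines by -1.76 ± 0.277 on the log2 scale (95% CI -2.38 to -1.14), the Cfp1-/- response being the larger fall (edgeR interaction, adjusted p = 0.0489). It was the 1 member of 10 called lower in this contrast, where 0.121% of all genes tested were called lower and 0.114% higher, and no member was called higher (0 also at an unadjusted p under 0.05 and 0 by DESeq2). The adjusted p was close to the threshold and moved across it. It was 0.0504 with DESeq2 size factors, 0.0573 when the second run of both libraries with differing runs was left out, 0.0028 with the replicate number as a block and between 0.0552 and 0.248 when any 1 of the 8 libraries was left out, while the difference itself stayed between -1.99 and -1.53.

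**Figure D1:**
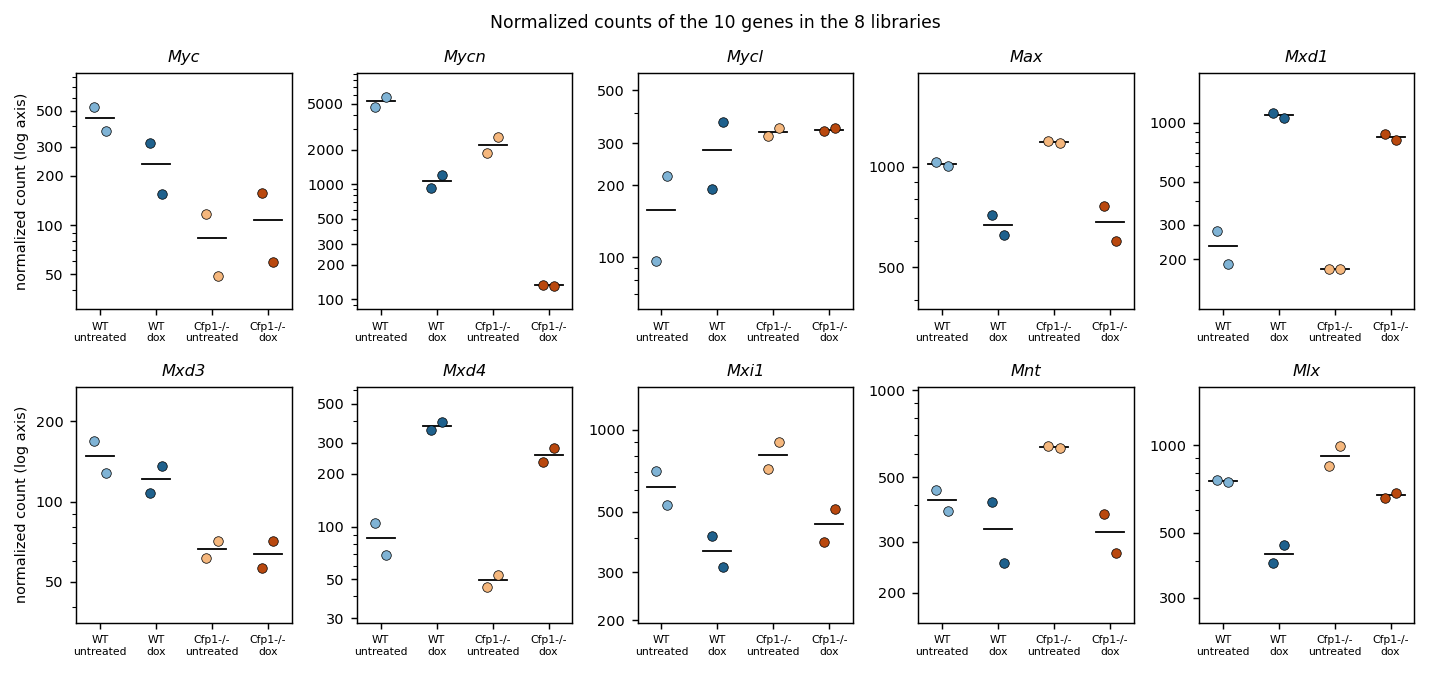
Normalized count of each of the 10 genes (log axis, a separate range per panel) in the 8 libraries, by group; each point is 1 biological replicate (technical replicates summed) and the line is the mean of 2. Mycn steps down from 4728 and 5754 in untreated WT to 133 and 131 in treated Cfp1-/- cells, while Mxd1 and Mxd4 are higher in all treated libraries than in all untreated ones.

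Myc itself was lower in untreated Cfp1-/- than in untreated WT cells, and its replicates spread widely. Its normalized count was 528 and 376 in untreated WT cells, 316 and 155 in treated WT cells, 117 and 49.0 in untreated Cfp1-/- cells and 156 and 59.8 in treated Cfp1-/- cells. In each group replicate 1 was above replicate 2, and the treated and untreated Cfp1-/- libraries overlapped. Untreated Cfp1-/- cells held 5.36-fold less Myc RNA than untreated WT cells (log2 fold change -2.42 ± 0.538, adjusted p = 0.00779), a call that was lost without replicate 2 of untreated Cfp1-/- cells (-1.92, adjusted p = 0.0529). The WT response was -0.90 ± 0.508 (adjusted p = 0.171), and with the replicate number as a block it was -0.98 (adjusted p = 0.00363). The Cfp1-/- response was 0.43 ± 0.540 (adjusted p = 0.546) and had the opposite sign, -0.45 and -0.09, without replicate 1 of the treated or replicate 2 of the untreated cells. The 2 responses differed by 1.33 with a 95% CI of -0.33 to 2.99 (adjusted p = 0.573, and 0.0739 with the block). In treated cells Myc differed between the lines by -1.09 ± 0.528 (adjusted p = 0.155) and by -1.14 with the block (adjusted p = 0.00409).

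Mycl, the remaining Myc gene, was lowest in untreated WT cells. Its normalized count was 96.8 and 218 in untreated WT cells, 193 and 369 in treated WT cells, 322 and 347 in untreated Cfp1-/- cells, and 338 and 346 in treated Cfp1-/- cells. The Cfp1-/- libraries lay close together, whereas the WT groups overlapped. The WT response was 0.89 ± 0.383 (adjusted p = 0.0799), which was past the threshold with the block (0.90, adjusted p = 0.0149), with total count scaling (1.21, adjusted p = 0.0259), without the filter on low counts (adjusted p = 0.0349), without replicate 2 of untreated WT (1.57, adjusted p = 0.00986) and without replicate 1 of treated WT cells (1.28, adjusted p = 0.0247). The Cfp1-/- response was 0.07 ± 0.370 (adjusted p = 0.886), and the responses differed by -0.82 with a 95% CI of -2.01 to 0.37. Mycl was higher in untreated Cfp1-/- than in untreated WT cells by 1.12 ± 0.381 (adjusted p = 0.0457), which was lost when any of 5 libraries (replicate 1 of untreated WT, either untreated and either treated Cfp1-/- library) was left out (adjusted p from 0.0705 to 0.202) and with DESeq2 size factors (1.10, adjusted p = 0.05003).

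Mxd1 and Mxd4, which encode Max partners that lower transcription, rose under doxorubicin in both lines, by between 4.43-fold and 5.34-fold. The normalized count of Mxd1 was 280 and 189 in untreated WT, 1123 and 1060 in treated WT, 179 and 177 in untreated Cfp1-/-, and 878 and 820 in treated Cfp1-/- cells. Every treated library was above every untreated one. The log2 fold change of Mxd1 was 2.26 ± 0.203 in WT (4.79-fold, adjusted p = 2.77e-05) and 2.29 ± 0.205 in Cfp1-/- cells (4.91-fold, adjusted p = 2.92e-05). The responses of Mxd1 differed by 0.03, with a 95% CI of -0.59 to 0.66, a difference that had the opposite sign with total count scaling (-0.06) and without the affected run (-0.03). Mxd4 had a normalized count of 104 and 68.8 in untreated WT, 354 and 393 in treated WT, 45.4 and 53.2 in untreated Cfp1-/-, and 234 and 280 in treated Cfp1-/- cells. Again no treated library overlapped an untreated one, and the Cfp1-/- libraries were below the WT libraries of the same treatment. Mxd4 rose by 2.15 ± 0.260 in WT (4.43-fold, adjusted p = 0.000149) and by 2.42 ± 0.270 in Cfp1-/- cells (5.34-fold, adjusted p = 9.54e-05), and the responses differed by 0.27 (95% CI -0.54 to 1.09). In untreated cells Mxd4 was lower in Cfp1-/- than in WT by -0.79 ± 0.272 (adjusted p = 0.0487), which was lost without any 1 of 7 libraries (all but replicate 2 of untreated WT, adjusted p from 0.0580 to 0.326) with total count scaling (-0.60, adjusted p = 0.121) and in a fit on the 2 groups alone (-0.76, adjusted p = 0.124).

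Neither Mxd3, Mnt nor Mxi1 was called higher under doxorubicin in either line. Mxd3, which in other cells is linked to dividing rather than resting cells, had a normalized count of 169 and 128 in untreated WT, 107 and 136 in treated WT, 61.2 and 71.0 in untreated Cfp1-/-, and 56.2 and 71.3 in treated Cfp1-/- cells. Treated and untreated libraries of a line overlapped, and both Cfp1-/- groups were below both WT groups. The responses of Mxd3 were -0.24 ± 0.280 in WT (adjusted p = 0.507) and -0.01 ± 0.293 in Cfp1-/- cells (adjusted p = 0.982), and with total count scaling both had the opposite sign (0.07 and 0.21). Between the lines Mxd3 differed by -1.14 ± 0.286 without doxorubicin (adjusted p = 0.0134) and by -0.91 ± 0.290 with it (adjusted p = 0.0449). The first call was lost without replicate 1 of untreated WT or of untreated Cfp1-/- cells (adjusted p = 0.0786 and 0.0962). The second was lost without any of 6 libraries, that is all but the untreated WT ones (adjusted p from 0.0568 to 0.209), with total count scaling (adjusted p = 0.0710), in a fit on the 2 groups alone (adjusted p = 0.0624) and without the second run of both libraries with differing runs (adjusted p = 0.0570).

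Mnt, the broadly expressed member of the repressing group, had a normalized count of 451 and 382 in untreated WT, 410 and 252 in treated WT, 642 and 629 in untreated Cfp1-/-, and 375 and 275 in treated Cfp1-/- cells. The untreated Cfp1-/- libraries were the highest, and the WT groups overlapped. Mnt fell in Cfp1-/- cells by 0.93 ± 0.252 (log2 fold change -0.93, adjusted p = 0.0128, and 0.108 without replicate 2 of the treated cells). In WT cells its change was -0.29 ± 0.253 (adjusted p = 0.374), and 0.03 with total count scaling. The difference of -0.64 between these responses had a 95% CI of -1.43 to 0.16. In untreated cells Mnt differed between the lines by 0.64 ± 0.249 (adjusted p = 0.0740), past the threshold with the block (0.65, adjusted p = 0.0118), with total count scaling (0.83, adjusted p = 0.0274), in a fit on the 2 groups alone (adjusted p = 0.0234) and without either treated WT library (adjusted p = 0.0373 and 0.0356).

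Mxi1, another Sin3-recruiting partner of Max, lies at chr19:53384996-53450300 (NCBIm37) and is the member hit by the affected run. It had 365 and 14 counts in the technical replicates of replicate 1 of treated Cfp1-/- cells, so that the first held 96.3% of its counts, against 50% to 75.6% in the 79 other pairs of a member and a library. The normalized count of Mxi1 was 704 and 530 in untreated WT, 406 and 314 in treated WT, 718 and 902 in untreated Cfp1-/-, and 387 and 514 in treated Cfp1-/- cells. Without the affected run the 387 became 577. Treated libraries were below untreated libraries of the same line in either case. Between the treated lines Mxi1 differed by 0.35 ± 0.228 (edgeR, adjusted p = 0.285). Under the alternatives other than leaving out a library this difference reached 0.62, with a lowest adjusted p of 0.0188 (edgeR). It was called only without the affected run and with the block added. The log2 fold change of Mxi1 was -0.73 ± 0.227 in WT cells (adjusted p = 0.0234) and -0.80 ± 0.225 in Cfp1-/- cells (adjusted p = 0.0147), and without the affected run the latter was -0.54 (adjusted p = 0.0524). The WT call was lost with total count scaling (-0.42, adjusted p = 0.169) and without replicate 1 of untreated WT (-0.51, adjusted p = 0.158) or replicate 2 of treated WT cells (-0.57, adjusted p = 0.123). The Cfp1-/- call was also lost with total count scaling (-0.59, adjusted p = 0.0643) and without replicate 2 of untreated or replicate 1 of treated Cfp1-/- cells (adjusted p = 0.0958 and 0.102).

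**Figure D2:**
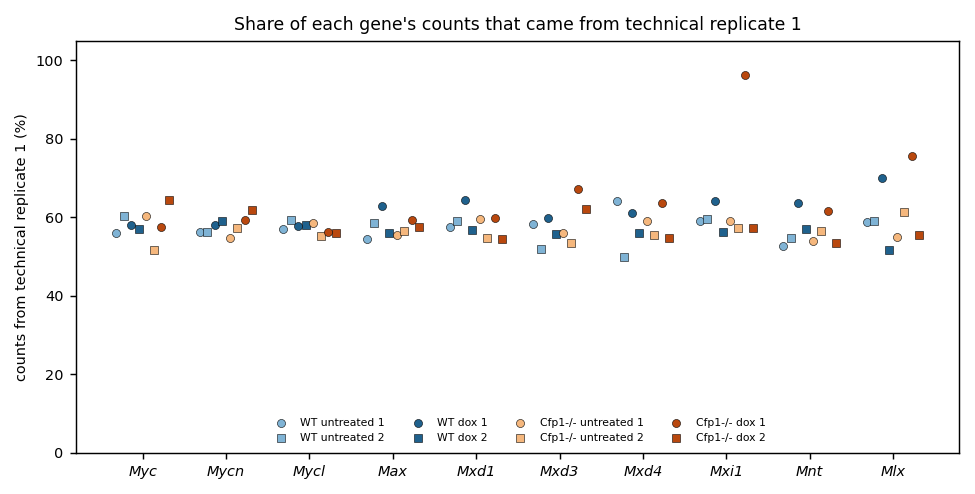
Percentage of each gene's raw counts that came from the first of 2 technical replicates (y axis), for the 10 genes in each of the 8 libraries (circles, replicate 1; squares, replicate 2). Mxi1 in replicate 1 of treated Cfp1-/- cells stands at 96.3%, and all other points lie between 50% and 75.6%.

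The shared partners Max and Mlx fell moderately. Max, the obligate partner of the Myc proteins, had a normalized count of 1034 and 1003 in untreated WT, 715 and 623 in treated WT, 1190 and 1179 in untreated Cfp1-/-, and 765 and 599 in treated Cfp1-/- cells. No treated library reached an untreated one. The log2 fold change of Max was -0.56 ± 0.162 in WT (adjusted p = 0.0173) and -0.75 ± 0.162 in Cfp1-/- cells (adjusted p = 0.00392), and the responses differed by -0.19 (95% CI -0.71 to 0.32). The WT call of Max was lost with total count scaling (-0.25, adjusted p = 0.223) and without replicate 1 of untreated or replicate 2 of treated WT cells (adjusted p = 0.0728 and 0.0909). Mlx had a normalized count of 757 and 747 in untreated WT, 394 and 453 in treated WT, 849 and 992 in untreated Cfp1-/-, and 658 and 686 in treated Cfp1-/- cells. The groups of a line did not overlap, and treated Cfp1-/- cells kept more Mlx RNA than treated WT cells, by 0.69 ± 0.156 (adjusted p = 0.0117, with a range of 0.0521 to 0.0648 when replicate 1 of treated WT or either treated Cfp1-/- library was left out). Mlx changed by -0.78 ± 0.156 in WT cells (adjusted p = 0.00262) and by -0.41 ± 0.153 in Cfp1-/- cells (adjusted p = 0.0483), and the responses differed by 0.37 (95% CI -0.12 to 0.86). The Cfp1-/- call of Mlx was lost without the affected run (-0.31, adjusted p = 0.118), with total count scaling (-0.20, adjusted p = 0.335), without the filter on low counts (adjusted p = 0.0682), in a fit on the 2 groups alone (adjusted p = 0.0532) and without any 1 of the 4 Cfp1-/- libraries (adjusted p from 0.0545 to 0.237). The affected run held a smaller share of the Mlx counts than of most members', 75.6% being in the first technical replicate.

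In counts of calls at an adjusted p under 0.05, 2 of the 10 members were higher and 4 lower in treated WT cells, where 26.5% of all genes tested were called higher and 21.8% lower. In treated Cfp1-/- cells 2 were higher and 5 lower, against 27.8% and 21% of all genes, and 3 were lower without the affected run. With the limits the study used in WT cells (also a 2.5-fold change and a mean normalized count of at least 200), Mxd1, Mxd4 and Mycn were called in WT cells, where 5.1% of genes were called higher and 2.8% lower. In Cfp1-/- cells Mxd1 and Mycn were called, against 5.38% and 2.23%, since the mean count of Mxd4 was 153. Between the untreated lines 1 member (Mycl) was higher and 4 (Myc, Mycn, Mxd3, Mxd4) lower in Cfp1-/- cells, against 17.9% and 16.1% of genes, and between the treated lines 1 (Mlx) was higher and 2 (Mycn, Mxd3) lower, against 15.1% and 10.8%. The members were selected with these contrasts known, and nothing is read from the counts.

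**Figure D3:**
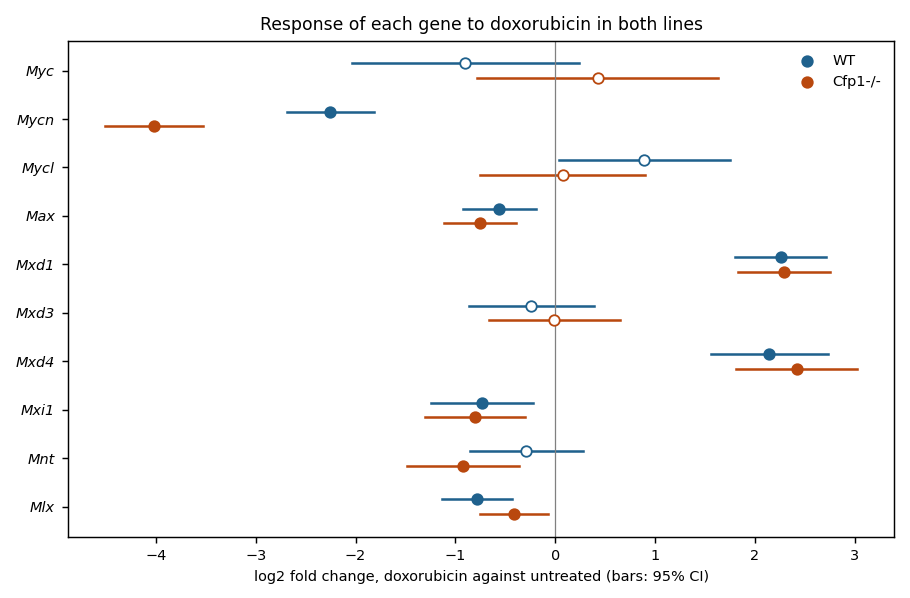
Log2 fold change of each gene, treated against untreated (x axis), in WT and Cfp1-/- cells, with 95% confidence intervals from edgeR; filled points have an adjusted p under 0.05. The intervals of the 2 lines are apart for Mycn (-2.25 and -4.02) and nearly coincide for Mxd1 (2.26 and 2.29).

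Per kilobase of exon, which allows levels to be compared between genes, the order of the members changed with the treatment. In untreated WT cells the mean normalized count per kb was 1592 for Mycn, 508 for Max, 376 for Mlx and 166 for Myc, and these were separate beyond their replicates. Mxi1 (110) and Mnt (90.0) overlapped each other, Mxd3 was at 71.4, and Mxd1 (50.3), Mycl (39.0) and Mxd4 (22.3) overlapped with their neighbors. The median of all genes tested was 92.3 in this group. In treated WT cells Max (334) and Mycn (323) overlapped at the top, followed by Mxd1 at 234 and Mlx at 212. The 6 members from Mxd4 (96.2) to Mxd3 (58.5) each overlapped with the next in order. In untreated Cfp1-/- cells Mycn (669) and Max (591) overlapped, Mlx was at 461, and Mxd3 (31.8) and Myc (30.5) overlapped near the bottom above Mxd4 (12.7). In treated Cfp1-/- cells Max (340) and Mlx (336) overlapped at the top, Mxd1 came next at 182, and Mycn (40.1) overlapped with Myc (39.8) in the lowest 3 places, with Mxd3 at 30.6.

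Summed over Myc, Mycn and Mycl, the level per kb was 1655 and 1940 in untreated WT, 444 and 514 in treated WT, 686 and 879 in untreated Cfp1-/-, and 182 and 148 in treated Cfp1-/- cells. Mycn made up 86.8% and 90.1% of that sum in untreated WT and 22.2% and 27.0% in treated Cfp1-/- cells, where Mycl was the largest part with 46.1% and 58.1%. The sum over Mxd1, Mxd3, Mxd4, Mxi1 and Mnt moved less, from 391 and 297 to 544 and 505 in WT and from 346 and 382 to 426 and 433 in Cfp1-/- cells. Within it Mxd1 went from 15.4% and 13.6% to 44.2% and 45.1% in WT cells and from 11.1% and 9.96% to 44.3% and 40.6% in Cfp1-/- cells. The ratio of the repressing to the Myc sum was 0.236 and 0.153 in untreated WT, 1.23 and 0.981 in treated WT, 0.504 and 0.435 in untreated Cfp1-/-, and 2.34 and 2.94 in treated Cfp1-/- cells (the 2.34 was 2.75 without the affected run). The 4 groups did not overlap in this ratio. It rests on RNA and on the members chosen, and no test was made on it.

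**Figure D4:**
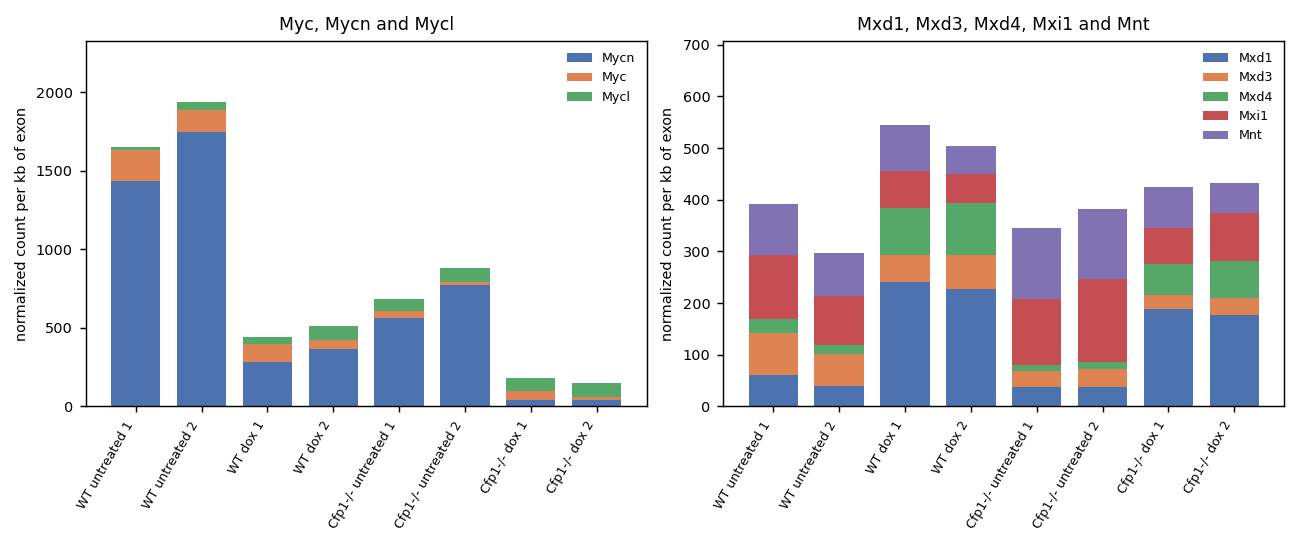
Normalized count per kb of exon in each library, stacked by gene, for the Myc genes (left) and for the repressing partners of Max (right); the y axes start at 0 and differ in range. The left sums fall from 1655 and 1940 in untreated WT to 182 and 148 in treated Cfp1-/- cells, and on the right the share of Mxd1 is largest in the treated libraries.

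The promoter sequences of Mycn, Mxd1 and Mxd4, the members with the largest responses, are shown for their CpG content, since Cfp1 binds unmethylated CpG. They are the 250 bases before the RefSeq start in GRCm38.p6, a later build than that of the counts, with every CpG in capitals.
Mycn (chr12:12941837-12942086, minus strand): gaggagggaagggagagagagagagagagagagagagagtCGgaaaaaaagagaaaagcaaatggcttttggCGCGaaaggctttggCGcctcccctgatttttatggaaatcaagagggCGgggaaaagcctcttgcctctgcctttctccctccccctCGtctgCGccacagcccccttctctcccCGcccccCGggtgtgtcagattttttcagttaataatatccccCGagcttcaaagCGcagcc
Mxd1 (chr6:86669160-86669409, minus strand): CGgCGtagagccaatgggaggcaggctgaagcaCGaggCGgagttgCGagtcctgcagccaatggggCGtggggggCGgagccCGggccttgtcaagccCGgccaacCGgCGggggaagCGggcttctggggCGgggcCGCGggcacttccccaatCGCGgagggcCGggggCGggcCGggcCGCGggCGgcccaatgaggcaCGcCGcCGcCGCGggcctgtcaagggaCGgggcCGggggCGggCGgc
Mxd4 (chr5:34187711-34187960, minus strand): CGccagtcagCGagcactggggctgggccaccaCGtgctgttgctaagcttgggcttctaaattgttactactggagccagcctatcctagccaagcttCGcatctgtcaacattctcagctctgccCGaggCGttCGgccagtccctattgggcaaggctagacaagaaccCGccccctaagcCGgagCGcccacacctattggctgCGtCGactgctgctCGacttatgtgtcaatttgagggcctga
Mycn had 11 CpG, Mxd1 32 and Mxd4 13 in these 250 bases, and 64.4%, 95.4% and 68.5% of all 32851 windows had fewer. The other windows of members held 12 to 42, and the median of all windows was 6.

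The E-box CACGTG, whose letters read the same on both strands, was looked for in the window from 250 bases before to 50 after the start, which was at hand for 9 of the 10 members (Myc had none). It was in 4 of them, or 4 of their 11 windows, and in 7.15% of all windows. The member windows held 14 to 49 CpG, against a median of 7 over all windows. Since the motif itself holds a CpG, the share of all windows is not a matched background. The 30 bases around each match are shown 5′ to 3′ on the strand of the gene, with the E-box in capitals.
Max (chr12:76962234-76962263): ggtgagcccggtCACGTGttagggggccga
Mlx (chr11:101087238-101087267): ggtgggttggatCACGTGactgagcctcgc
Mnt (chr11:74830789-74830818): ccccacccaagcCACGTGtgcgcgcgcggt
Mxd4 (chr5:34187912-34187941): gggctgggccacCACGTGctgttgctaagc
The first base of the E-box lay at -3 in Max, -40 in Mlx, -123 in Mnt and -219 in Mxd4, counted from the start. Of these genes Max and Mlx fell in both lines, Mnt fell in Cfp1-/- cells and Mxd4 rose in both. No CACGTG was in the windows of Mycn, Mycl, Mxd1, Mxd3 or Mxi1, which says only that these letters are absent there.

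By Pearson correlation of log2 normalized counts across the 8 libraries, among 9499 genes, the patterns most like that of Mycn were those of Ints12 (r = 0.997), Prcc (r = 0.996), 2210016L21Rik (r = 0.994), Ahcyl2 (r = 0.989) and Jub (r = 0.988). All 8 libraries share the 4 groups, so these values describe the order of the groups, and the likeness is in shape and not in size. The log2 fold changes of Ints12, for example, were -0.49 in WT and -0.78 in Cfp1-/- cells, against -2.25 and -4.02 for Mycn.

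Further members of the network numbered 7 (Mga, Mlxip, Mlxipl, Mycbp, Mycbp2, Zbtb17 and Bin1), all tested. In each line 3 rose and 2 fell, where 26.5% of all genes were called higher and 21.8% lower in WT and 27.8% and 21% in Cfp1-/- cells, with a median log2 fold change of 0.01 in WT and -0.01 in Cfp1-/- cells, where the median of all genes was 0.06 and 0.01. Mlxipl, the glucose-responsive partner of Mlx also known as ChREBP, rose from 133 and 80.3 to 736 and 475 normalized counts in WT cells (log2 fold change 2.54 ± 0.363, adjusted p = 0.000383) and from 146 and 76.9 to 609 and 513 in Cfp1-/- cells (2.37 ± 0.360, adjusted p = 0.00057). Its paralog Mlxip rose by 0.67 in WT (adjusted p = 0.0173) and by 0.61 in Cfp1-/- cells (adjusted p = 0.0245). Mga, a large Max partner found in a Polycomb complex, went from 26266 and 22799 to 9604 and 8492 in WT cells (-1.39 ± 0.143, adjusted p = 5.56e-05) and from 17899 and 17669 to 9444 and 7971 in Cfp1-/- cells (-0.99 ± 0.142, adjusted p = 0.000417). Bin1, which encodes a protein that binds and restrains Myc, rose by 1.35 ± 0.253 in WT (adjusted p = 0.00188) and by 2.64 ± 0.262 in Cfp1-/- cells (adjusted p = 5.05e-05), and the responses differed by 1.29 ± 0.355 (adjusted p = 0.235, and 0.0173 with the replicate number as a block). Bin1 was the 1 of the 7 called in the response difference with the block, and without it edgeR and DESeq2 called 0, with 1 higher at an unadjusted p under 0.05. The main fit called 0.114% of all genes higher and 0.121% lower in this contrast. The share of all genes called with the block was not counted, so nothing is read from the 1 call.

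Of 21 cofactors and modifiers of Myc and Mxd proteins (acetyltransferase, Sin3 and deacetylase subunits, kinases and ubiquitin enzymes), 5 rose and 12 fell in WT cells (median -0.58), and 2 rose and 12 fell in Cfp1-/- cells (median -0.53). Over all genes 26.5% were called higher and 21.8% lower in WT cells (median 0.06), and 27.8% and 21% in Cfp1-/- cells (median 0.01). With total count scaling 9 fell in each line (median -0.26 in WT and -0.31 in Cfp1-/- cells, against 0.37 and 0.23 over all genes). Pim1, a kinase that cooperates with Myc, went from 1622 and 1953 to 367 and 290 in WT (-2.40 ± 0.298, adjusted p = 0.00017) and from 1245 and 864 to 183 and 95.4 in Cfp1-/- cells (-2.88 ± 0.310, adjusted p = 7.81e-05). Skp2, part of a ubiquitin ligase that acts on Myc, changed by -1.53 ± 0.142 in WT (adjusted p = 3.24e-05) and by -1.51 ± 0.144 in Cfp1-/- cells (adjusted p = 4.05e-05). Pim3, a kinase related to Pim1, changed by -1.45 in WT (adjusted p = 0.000188) and by -1.36 in Cfp1-/- cells (adjusted p = 0.000292). Fbxw7, which encodes the ligase subunit that marks Myc and Mycn proteins for degradation, rose from 2953 and 2673 to 7055 and 7229 in WT (1.39 ± 0.123, adjusted p = 2.56e-05) and from 2838 and 2732 to 5983 and 5466 in Cfp1-/- cells (1.08 ± 0.122, adjusted p = 0.000101). Sin3a, the corepressor bound by Mxd proteins, changed by -1.33 in WT (adjusted p = 0.000144) and by -1.29 in Cfp1-/- cells (adjusted p = 0.000177), and Sin3b by 0.67 in WT (adjusted p = 0.00172) and by 0.33 in Cfp1-/- cells (adjusted p = 0.0521). Both Sin3 genes were picked for mention after their values were seen.

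Of 40 genes known as raised by Myc, mostly for ribosome production, translation, nucleotide synthesis and glycolysis, 26 fell and 2 rose in WT cells (median -0.63), and 19 fell and 2 rose in Cfp1-/- cells (median -0.37), against 21.8% of all genes called lower and 26.5% higher in WT and 21% and 27.8% in Cfp1-/- cells. With total count scaling 17 fell in WT (median -0.32, against 0.37 over all genes) and 14 in Cfp1-/- cells (median -0.16, against 0.23). Without the affected run 23 fell in Cfp1-/- cells (median -0.45, against 0.01 over all genes). Hk2, a hexokinase of glycolysis, went from 12982 and 12583 to 3365 and 3060 normalized counts in WT (-1.95 ± 0.176, adjusted p = 2.84e-05) and from 10738 and 10569 to 3842 and 2645 in Cfp1-/- cells (-1.67 ± 0.174, adjusted p = 6.53e-05). Gnl3, which encodes the nucleolar protein nucleostemin, changed by -1.71 ± 0.123 in WT (adjusted p = 9.09e-06) and by -1.09 ± 0.121 in Cfp1-/- cells (adjusted p = 9.26e-05). Ppat, the first enzyme of purine synthesis, changed by -1.55 in WT (adjusted p = 4.51e-05) and by -1.33 in Cfp1-/- cells (adjusted p = 0.000112). The 2 genes that rose in both lines were Tert, the telomerase reverse transcriptase (1.59 ± 0.279 in WT, adjusted p = 0.00126, and 1.34 ± 0.274 in Cfp1-/- cells, adjusted p = 0.00301), and Cad, a pyrimidine synthesis enzyme (0.82 in WT, adjusted p = 0.00171, and 0.75 in Cfp1-/- cells, adjusted p = 0.00292). Cad was picked for mention after its values were seen. In untreated Cfp1-/- cells 16 of the 40 were lower and 0 higher than in untreated WT cells (median -0.41, edgeR, with 0 higher also at an unadjusted p under 0.05 and 0 by DESeq2), where 16.1% of all genes were called lower and 17.9% higher. With total count scaling 10 were lower and 1 (Pes1, 0.46) higher (median -0.21, against 0.20 over all genes). With the replicate number as a block 23 were lower and 1 (Tert, 0.55) higher (median -0.41, against 0.01 over all genes). Gnl3 was among the 16 (-1.07, adjusted p = 0.000327). In the response difference 0 of the 40 were called by edgeR and 0 by DESeq2, and 4 were higher at an unadjusted p under 0.05. In this contrast edgeR called only 0.114% of all genes higher and 0.121% lower, and the share at an unadjusted p was not counted. Of the 40 values 33 were above 0 and 7 below (median 0.20, against 0.005 over all genes), which was not tested.

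Of 8 genes known as lowered by Myc, 4 rose and none fell in WT cells (median 1.25), and 5 rose and none fell in Cfp1-/- cells (median 1.93), against 26.5% of all genes called higher and 21.8% lower in WT and 27.8% and 21% in Cfp1-/- cells. Between the untreated lines 4 of the 8 were lower and 1 (Cdkn1a, 0.79) higher in Cfp1-/- cells (median -0.93). Over all genes 16.1% were called lower and 17.9% higher in that contrast (median 0.01). This list and the 40 genes raised by Myc thus both had a median below 0 there. At an unadjusted p under 0.05, 1 was lower in each line, and DESeq2 called 1 lower in WT cells. With the replicate number as a block 5 rose and 2 fell in WT cells. Cdkn1a, the cyclin-dependent kinase inhibitor p21 that p53 also induces, went from 131 and 226 to 1805 and 1655 in WT (3.33 ± 0.257, adjusted p = 1.297e-05) and from 338 and 263 to 1294 and 1165 in Cfp1-/- cells (2.07 ± 0.242, adjusted p = 0.000124). The responses of Cdkn1a differed by -1.26 ± 0.337 (adjusted p = 0.229, and 0.0356 by DESeq2). Cdkn2b, the inhibitor p15, rose by 2.63 in WT (adjusted p = 2.21e-05) and by 2.68 in Cfp1-/- cells (adjusted p = 2.26e-05). Gas1, a growth-arrest gene, rose by 1.44 (adjusted p = 0.00315) and by 1.79 (adjusted p = 0.00106). Col1a1, a collagen gene that is also on the fibroblast marker list, rose from 90.9 and 55.2 to 365 and 201 in WT (1.99, adjusted p = 0.00266) and from 13.0 and 5.07 to 205 and 237 in Cfp1-/- cells (4.66, adjusted p = 7.11e-05). The responses of Col1a1 differed by 2.67 ± 0.629 (adjusted p = 0.167, 0.00564 by DESeq2 and 0.0223 with the block). Of 3 known targets of Mlx complexes (Txnip, Arrdc4 and Pklr), only Arrdc4, an arrestin-domain gene that limits glucose uptake, was called in WT cells (0.90 ± 0.176, adjusted p = 0.00233), and its change in Cfp1-/- cells was 0.43 ± 0.174 (adjusted p = 0.0654, 0.0137 with total count scaling and 0.0383 with the block). Txnip, a related inhibitor of glucose uptake, changed by -0.60 ± 0.350 in Cfp1-/- cells (adjusted p = 0.183), which was past the threshold with the block (-0.63, adjusted p = 0.00357).

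**Figure D5:**
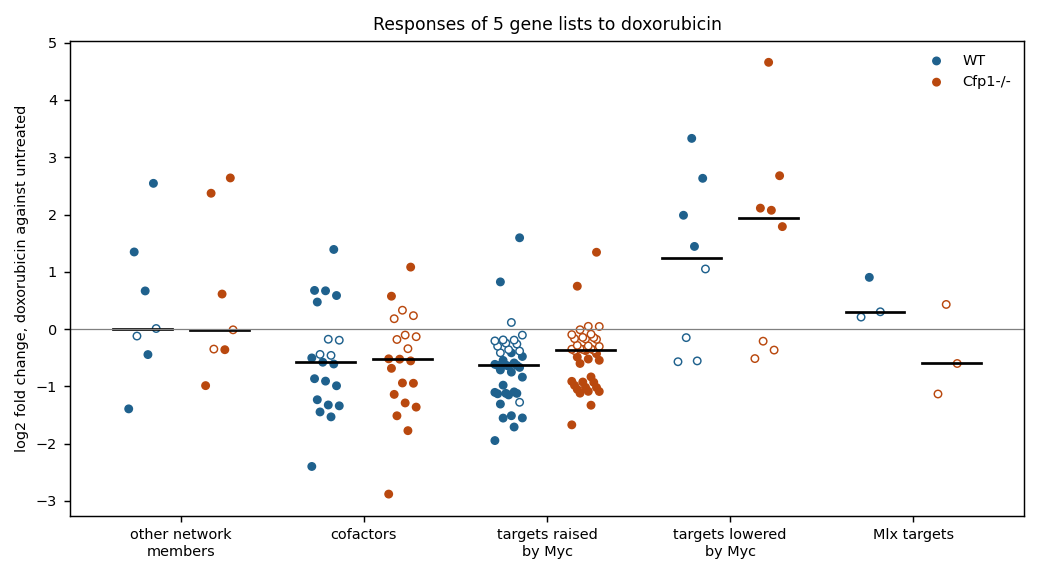
Log2 fold change of each gene of 5 lists, treated against untreated (y axis), in WT and Cfp1-/- cells; filled points have an adjusted p under 0.05 and the black line is the median of the list. The 40 targets raised by Myc have a median of -0.63 in WT and -0.37 in Cfp1-/- cells.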

How the data were processed

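Per the labels and the study's methods, ribosomal RNA was removed from total RNA and strand-specific libraries were prepared. The authors aligned 75 bp paired-end reads to NCBIm37 (mm9) with STAR (version 2.2.1 in the submitters' processing notes). HTSeq-count then assigned sense-strand reads to Ensembl exons in union mode. The raw counts of each run were deposited as 1 table. A second deposited table holds normalized counts, a signal equal to the counts of both runs of a library, summed, over its DESeq size factor. Union mode drops reads on overlapping exons. No member overlapped another gene's exons on its own strand, and Mxd3, Mxi1 and Mlx lie opposite Prelid1, Gm10197 and Psmc3ip.

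Runs (technical replicates) were summed, so n = 2 per group. Log2 fold changes came from the raw counts with edgeR 4.0.16 in R 4.3.3 (filterByExpr, TMM, 1 coefficient per group over all 8 libraries, glmQLFit, glmQLFTest) with the Benjamini-Hochberg adjustment over 15758 genes. Standard errors were derived from the F statistic. The contrasts were the response to doxorubicin in each line, their difference, and Cfp1-/- against WT in either treatment, so several contrasts share libraries. The fit was also run on simulated libraries with the same dispersion for all genes, no pairing of replicates and no lost counts. That run cannot show how the fit handles these features of the data. Values printed per library are the authors' normalized counts, divided by exon length (kb) where levels of different genes are compared.

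The members and the gene lists were chosen with earlier results of these data known. The text names the 10 members, up to 4 called genes per list with the largest change in WT cells (and up to 2 called in the response difference, of which there were none) and the 5 genes most like Mycn. Alternatives were DESeq2 1.42.0, its size factors in edgeR, total count scaling, no low-count filter, the replicate number as a block, the 2 groups alone, each library left out and the affected run left out. Leaving out both technical replicates that differed from their partners, and the alternatives for the lists, were chosen after seeing the data. Shares of all genes called were counted in the main fit only. Neither the labels nor the methods say what same-numbered replicates share. Their deviations from the group means correlated by 0.14 to 0.451 across genes in all 6 pairs of groups. On that ground equal numbers were taken as pairs in the alternative with the block. The main fit left the pairing out, so its adjusted p-values are unpaired. Promoter sequences are RefSeq's for GRCm38.p6.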

Additional observations from a re-analysis of the deposited data

Results flagged for a closer look

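The response of Mycn to doxorubicin differed between the lines by the interaction test, the Cfp1-/- minus the WT log2 fold change being -1.76 (edgeR, adjusted p = 0.0489). The dependence of this difference on single libraries and on scaling is given with the result. All 4 treated libraries were below all 4 untreated ones, which describes the fall in both lines and not the difference between them.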

How the results depend on the processing

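Of 50 log2 fold changes of members, 20 kept call and direction under all alternatives. With 1 library left out, the lone sample of a group is assumed to vary like the other groups. Total count scaling shifted the median of all genes by 0.31 in the WT response, 0.21 in the Cfp1-/- response and 0.19 between the untreated lines. The replicate block changed 4 calls of members, all given with the results, and no other. For each altered value the cause was not tested.

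Members called lower numbered 2 (WT) and 3 (Cfp1-/-) with total count scaling, and 3 (Cfp1-/-) without the affected run or both differing runs. In the response difference 0 were called lower with DESeq2 size factors, without both differing runs, and without any 1 library. Between untreated lines, members called higher numbered 0 with DESeq2 size factors and without both differing runs, 2 with the replicate block (also without the affected run) and with 2 groups alone, and 3 with total count scaling. Between treated lines 2 (Mlx and Mxi1) were higher without the affected run when the block was added. In the same contrast 1 was lower with total count scaling, without both differing runs, or with 2 groups alone. Without the mean count limit 2 members passed the study's limits upward in Cfp1-/- cells. With 1 library left out, members called lower ranged from 2 to 4 (WT), 3 to 5 (Cfp1-/-), 2 to 4 (untreated lines) and 1 to 2 (treated lines), and members called higher from 0 to 2 (untreated lines) and 0 to 1 (treated lines). Without length correction the ratio of repressing to Myc sums had a mean of 0.262, 1.46, 0.669 and 3.36 in untreated WT, treated WT, untreated Cfp1-/- and treated Cfp1-/- cells.

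Uncalled values changed sign as follows. With total count scaling they were Mnt 0.026 and Mxd3 0.073 (WT), Mxd3 0.21 (Cfp1-/-) and Mxd1 -0.065 (response difference). Without the affected run, with the block added to that, and without both differing runs, they were Mxd3 0.016, 0.016 and 0.017 and Mycl -0.027, -0.050 and -0.027 (Cfp1-/-), Mxd1 -0.030, -0.037 and -0.037 and Mxi1 0.20, 0.19 and 0.20 (response difference), and Mnt -0.054, -0.035 and -0.041 and Max -0.027, -0.027 and -0.017 (treated lines). Mnt between treated lines was also -0.023 with DESeq2 size factors, -0.025 with DESeq2, -0.0076 without the filter and -0.019 with 2 groups alone. With 1 library left out the ranges were -0.68 to 0.016 for Mnt in WT cells, -0.19 to 0.13 for Mxd3 and -0.45 to 1.17 for Myc in Cfp1-/- cells, -0.33 to 0.26 for Mxd1, -0.033 to 0.41 for Mxd3, -0.34 to 0.12 for Mxi1 and -0.12 to 0.50 for Mxd4 in the response difference, and -0.31 to 0.38 for Mnt, -0.090 to 0.85 for Mycl and -0.15 to 0.23 for Max between the treated lines.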
